A study of Mus musculus with 12 samples.

Results

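The genes described here are 10 genes of the extracellular matrix that fibroblasts make besides collagen, namely Fn1, Sparc, Lox, Postn, Thbs1, Timp1, Timp3, Mmp2, Bgn and Dcn. They were chosen by symbol, and they are 10 of the 21918 protein-coding genes that have both mouse mm10 coordinates and an RNA-seq value in these data. The study compared mouse embryonic stem cells (mESCs) of the E14 line with NIH3T3 cells, an established line of mouse fibroblasts, and asked where Ctr9, a subunit of the Paf1 complex that travels with RNA polymerase II (RNAPII), sits on chromatin in each. ChIP-seq of Ctr9-GFP and of H3K27ac, a histone mark of active promoters and enhancers, was made in both lines. NELFA-GFP, RNAPII Ser5p and RNAPII Ser2p were mapped in mESCs only, and Ser5p in the NELFA-GFP cells. RNA-seq was made once in each line. The Ctr9-GFP cells of both lines were pools sorted for GFP after knock-in of the tag at the end of Ctr9, and the NELFA-GFP mESCs carried NELFA with a GFP tag for localization and purification. No tag is named for the cells used for RNA-seq. Both lines grew in the same serum medium with LIF. No treated group enters the values below. Each kind of library used here was made once per line, so the error given with a value covers counting only and no test across replicates could be made.

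The matrix is the protein network outside cells. Fibronectin and other glycoproteins form its fibres together with collagen, lysyl oxidase crosslinks the fibres, small proteoglycans such as biglycan and decorin bind them, and metalloproteinases cut them under the control of the TIMP inhibitors. The Paf1 complex accompanies elongating RNAPII through gene bodies and past the site where the transcript is cut, whereas NELF and the Ser5-phosphorylated form of RNAPII mark the pause close to the start.

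The labels of both lines fitted their marker genes. All 8 fibroblast markers had a TPM of at least 1 in NIH3T3 cells, from 24.2 for Twist1 to 3337 for S100a4, and 3 of 8 did in mESCs, where Vim was highest at 162. TPM is a measure of RNA level per transcript length that adds up to the same total in every library, and each gene is represented by its highest transcript. The 5 pluripotency markers lay between 211 and 1402 TPM in mESCs and between 0 and 0.511 in NIH3T3 cells. The 4 epithelial markers summed to 284 TPM in mESCs and 0.0148 in NIH3T3 cells. Of the 5 markers of primitive and parietal endoderm, an early embryonic cell type that lays down matrix, 2 had a TPM of at least 1 in mESCs (Gata4 at 2.21 and Sox7 at 6.04), and the list summed to 9.24 there and to 28.5 in NIH3T3 cells, where Dab2 made up 24.2. The part of such cells in the mESC values was not tested. The RNA-seq libraries held 26400407 (mESC) and 28849497 (NIH3T3) estimated counts, and the read depth behind the peaks is unknown.

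All 10 matrix genes had more RNA in NIH3T3 cells than in mESCs. Each differed by at least 2 in log2(TPM + 1), that is about 4-fold, and 4.98% of all protein-coding genes were that much higher in NIH3T3 cells while 5.34% were that much lower. The median difference of the 10 genes was 5.13, with a range from 2.03 for Sparc to 9.87 for Bgn, against a median of 0.00 over all protein-coding genes. Summed over all their transcripts, the 10 genes took 5537 TPM in NIH3T3 cells and 466 in mESCs. Less RNA per cell and fewer cells that express a gene cannot be told apart in such bulk libraries.

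**Figure D1:**
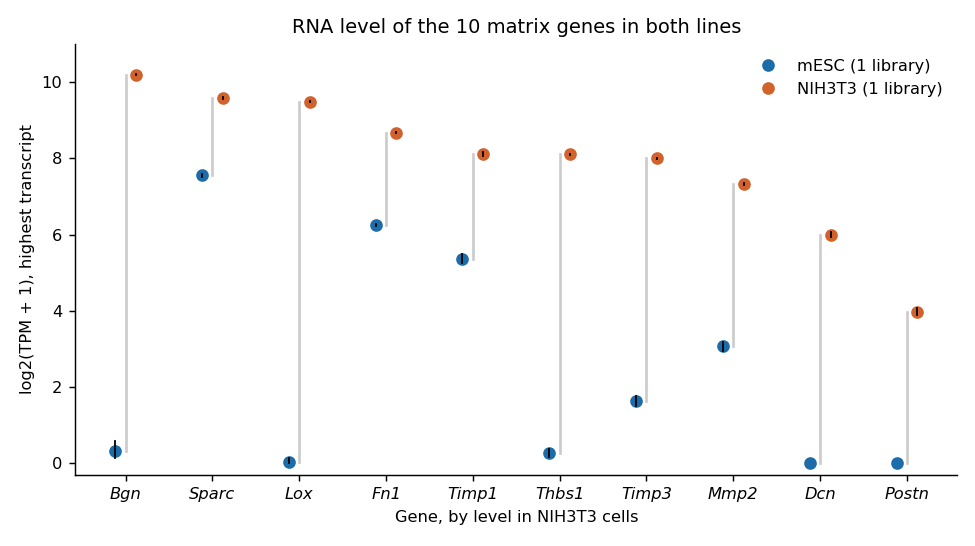
RNA level of the 10 genes in mESCs (blue) and NIH3T3 cells (orange), as log2(TPM + 1) of the highest transcript, with genes in the order of their level in NIH3T3 cells and black bars for the 95% exact Poisson interval of the counts. In every gene the orange point is the higher one, and the blue points spread from 0 for Dcn and Postn to 187 TPM for Sparc.

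By the highest transcript, the levels in NIH3T3 cells ran in the order Bgn, Sparc, Lox, Fn1, Timp1, Thbs1, Timp3, Mmp2, Dcn and Postn. Their 95% exact Poisson intervals were apart at each step except between Timp1 and Thbs1, whose intervals of 267 to 284 and 272 to 278 TPM overlapped. These intervals leave out the error of dividing reads between the transcripts of a gene. Summed over all transcripts, Fn1 stood at 1080 TPM, Lox at 1019 and Sparc at 914, which reverses the order of these genes. In mESCs the order was Sparc, Fn1, Timp1, Mmp2, Timp3, Bgn, Thbs1 and Lox, with Dcn and Postn at 0 counts. There the intervals of Bgn and Thbs1 overlapped. The genes thus split in mESCs into Sparc, Fn1 and Timp1 at 40.4 TPM or more, Mmp2 and Timp3 at 7.44 and 2.1, and the other 5 at 0.25 or less.

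Fn1 encodes fibronectin, the large glycoprotein that links matrix fibres to integrins on the cell surface, and lies at chr1:71585520-71653200 on the minus strand. Its level was 75.7 TPM in mESCs (95% exact Poisson interval, 74.4 to 77) and 406 in NIH3T3 cells (403 to 409). The gene was already the second highest of the 10 in mESCs, and its CPM, the counts over all transcripts of a gene as a share of the library total, was 6.13 times higher in NIH3T3 cells (95% exact interval, 6.05 to 6.21). Ctr9 covered the gene in both lines. In NIH3T3 cells 10 peaks lay over the gene and its flanks of 5 kb, and they covered 76.5% of this window. The broadest ones were 21894 and 18512 bp wide, which placed them 9th and 15th by width in a list of 22016 peaks. The strongest had its summit 1387 bp past the gene end, with a fold enrichment of 18.8 over the local background and a −log10 q of 79.7, and 99.8% of the peaks in that list ranked no higher. In mESCs 47 narrower peaks covered 32.7% of the window, and the strongest, at a fold enrichment of 11.8, had its summit 2044 bp past the end. Ctr9 was thus called over Fn1 as a few broad stretches in NIH3T3 cells and as many separate peaks in mESCs, with the strongest peak past the gene end in both. The part of library depth in the number and width of these peaks was not tested.

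Fibronectin is made in several spliced forms. An exon at chr1:71613763-71614035 (273 bp) codes for the extra domain B, and another at chr1:71603660-71603929 (270 bp) for the extra domain A, both of which are best known from embryonic and healing tissue. The 7 full-length coding transcripts of Fn1 summed to 139 TPM in mESCs and 888 in NIH3T3 cells. Transcripts with the extra domain B exon made up 54.4% of this sum in mESCs and 45.7% in NIH3T3 cells. For the extra domain A exon the shares were 73% and 57.4%. The main transcript without either exon, Fn1-203, stood at 37.6 TPM in mESCs and 376 in NIH3T3 cells, while Fn1-201, which holds both, stood at 75.7 and 406. The variable region, an exon with 3 annotated starts, was used in its longest form of 467 bp in 94.7% and 94.4% of the sum. Both lines thus held forms with and without the extra domains, and the shares of both domains were lower in NIH3T3 cells. These shares come from kallisto's division of reads that fit several transcripts, whose error is not in the table, and only 1 of the 7 transcripts holds the extra domain B exon.

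**Figure D2:**
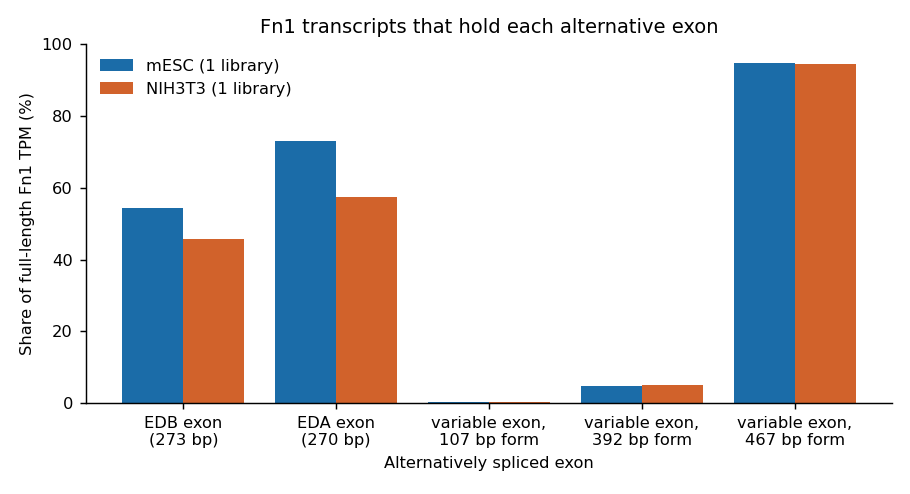
Share of the summed TPM of the 7 full-length coding Fn1 transcripts that falls on transcripts with each alternative exon, in percent, for mESCs (blue) and NIH3T3 cells (orange). The EDB (extra domain B) and EDA (extra domain A) bars are at 54.4% and 73% in mESCs against 45.7% and 57.4% in NIH3T3 cells, and the forms of the variable exon are nearly level between the lines.

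Sparc, Thbs1 and Postn encode matricellular proteins, which sit in the matrix and modulate how cells respond to it. Sparc (osteonectin, a collagen-binding glycoprotein, chr11:55394500-55423183, minus strand) had 187 TPM in mESCs (183 to 192) and 766 in NIH3T3 cells (757 to 774). Its ratio of CPM, 4 (3.91 to 4.1), was the lowest of the 10, since it was also the highest of them in mESCs. In NIH3T3 cells 14 Ctr9 peaks covered 28.9% of its window. The strongest lay 1159 bp inside the start of the main transcript with a fold enrichment of 7.49, and the next, at 7.06, 282 bp past the end. In mESCs 3 weak Ctr9 peaks with fold enrichments from 3.29 to 4.32 lay around the gene end. The mESC signal on Sparc was thus limited to the end of the gene, and its RNA level there was at the 97.9th percentile of the protein-coding genes.

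Thbs1 (thrombospondin 1, a glycoprotein that activates latent TGF-beta, chr2:118111876-118127133, plus strand) had 0.201 TPM in mESCs (0.127 to 0.301) and 275 in NIH3T3 cells. Its 23 estimated counts in mESCs stood against 33997 in NIH3T3 cells, a ratio in CPM of 1353 (901 to 2134). Ctr9 covered 59.5% of its window in NIH3T3 cells with 11 peaks, the densest cover after Fn1, and none was called in mESCs. The strongest, with a fold enrichment of 12.2, had its summit 447 bp past the end, and 1 peak lay 275 bp inside the start. The outermost peak, 4420 bp past the end, also lies within Fsip1, a gene on the other strand at 0.507 TPM in NIH3T3 cells.

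Postn (periostin, which joins collagen and fibronectin, chr3:54361109-54391037, plus strand) was the lowest of the 10 in NIH3T3 cells at 14.8 TPM (13.8 to 15.8) and had 0 counts in mESCs. Its 1478 counts in NIH3T3 cells were 451-fold higher in CPM than a floor of 3 counts in mESCs. This floor is a fixed value and not the limit of an interval. No Ctr9 peak lay in its window in either line, and the nearest one in NIH3T3 cells was 419.6 kb from the gene body. Alternative exons of 81 and 84 bp in the later part of Postn were held by 17.8% and 23.3% of the 24.2 TPM of its 4 full-length coding transcripts, and the form without either, Postn-204, was the highest.

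Lox (lysyl oxidase, which crosslinks collagen and elastin, chr18:52516067-52529867, minus strand) went from 2 estimated counts in mESCs to 80479 in NIH3T3 cells. The levels were 0.0299 TPM (0.00362 to 0.108) and 716 TPM (710 to 721). With so few counts in mESCs the ratio in CPM, 36823, is known only to within 10193 to 304069. Of its transcripts, Lox-202 (4468 bp) held 70.3% of the TPM in NIH3T3 cells and Lox-201 (3604 bp) the rest. There 11 Ctr9 peaks covered 26.7% of the window, with fold enrichments from 3.45 to 5.84, and the strongest lay 1509 bp past the end. The nearest Ctr9 peak of mESCs was 19.4 kb from the gene body.

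Bgn (biglycan) and Dcn (decorin) encode small proteoglycans that bind collagen fibres. Bgn (chrX:73483602-73495933, plus strand) was the highest of the 10 genes in NIH3T3 cells at 1167 TPM (1158 to 1176) and had 0.25 TPM in mESCs (0.1 to 0.515). The highest transcript was Bgn-201 in NIH3T3 cells and Bgn-207, with 7 counts, in mESCs. Over all its transcripts the gene had 67473 and 9 counts, and its ratio in CPM was 6861 (3614 to 15004). The Ctr9 cover of Bgn did not go with its rank in RNA: 6 peaks covered 14.6% of the window, 4 of them past the gene end and the other 2 at 823 and 1419 bp before it. The strongest had a fold enrichment of 6.96 at 1050 bp past the end. Dcn (chr10:97479609-97518143, plus strand) stood at 62.7 TPM in NIH3T3 cells (60 to 65.6) with 1992 counts, and at 0 counts in mESCs, at least 608-fold lower in CPM. It had no Ctr9 peak in either line, and the nearest one in NIH3T3 cells was 829.3 kb away.

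Mmp2 encodes gelatinase A, a protease that cuts denatured collagen and basement membrane, and Timp1 and Timp3 encode inhibitors of such proteases, of which Timp3 stays bound to the matrix. Mmp2 (chr8:92827291-92853420, plus strand) had 7.44 TPM in mESCs (6.78 to 8.13) and 161 in NIH3T3 cells (158 to 164), a ratio of 21 (19.2 to 23.1) in CPM. Its 3 Ctr9 peaks in NIH3T3 cells covered 3.4% of the window and all lay past the gene end, from 1042 to 2638 bp. There they overlap Gm45472 and, for 2 of them, Lpcat2, which starts there and had 1.46 TPM in NIH3T3 cells, so a peak cannot be given to 1 of these genes alone.

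Timp1 (chrX:20870166-20874735, plus strand) lies inside Syn1, a neuronal gene on the other strand. It had 40.4 TPM in mESCs (37 to 43.9) and 276 in NIH3T3 cells, with a ratio of 5.88 (5.41 to 6.4) in CPM. Timp1 was the only member whose Ctr9 peaks were confined to mESCs. The 3 mESC peaks lay outside the body of Timp1, 4255 bp upstream of its start and 597 and 1170 bp past its end, where they fall within Syn1, at 4.44 TPM in mESCs and 3.71 in NIH3T3 cells. The strongest had a fold enrichment of 5.23. In NIH3T3 cells the nearest Ctr9 peak was 165.9 kb away, at Usp11. Timp3 (chr10:86300372-86349506, plus strand), which likewise lies inside a gene of the other strand, Syn3, went from 2.1 TPM (1.82 to 2.42) to 255 (252 to 258), a ratio of 117 (102 to 135). It held the most Ctr9 peaks of the 10 in NIH3T3 cells, 22, and none in mESCs. These were weak, with fold enrichments from 2.61 to 5.2, had their first summit 17050 bp inside the start and covered 19.3% of the window. Syn3 had 0.716 TPM in NIH3T3 cells and 0.411 in mESCs.

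**Figure D3:**
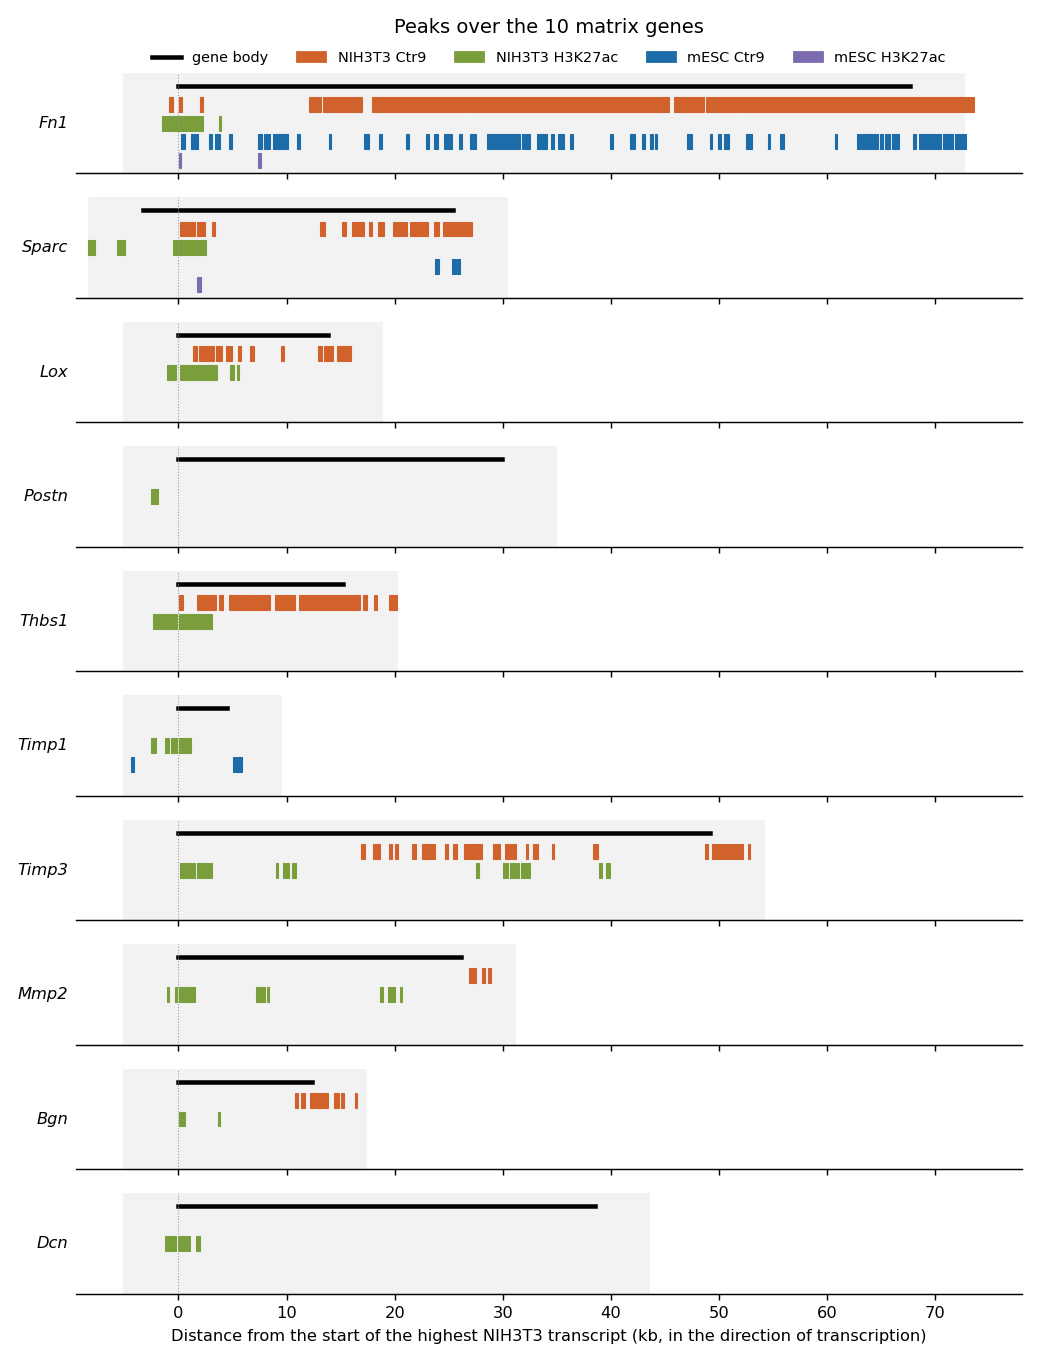
Peaks over each gene by distance in kb from the start of its highest NIH3T3 transcript, drawn in the direction of transcription, with the gene body in black and the counted window in grey. NIH3T3 Ctr9 peaks (orange) fill the bodies of Fn1 and Thbs1 and lie at and past the ends of Mmp2 and Bgn, while NIH3T3 H3K27ac peaks (green) lie around the starts, further upstream at Sparc and deep in the bodies of Timp3 and Mmp2, and past no gene end, and mESC Ctr9 peaks (blue) are seen at Fn1, Sparc and Timp1.

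Put together, 7 of the 10 genes had a Ctr9 peak in NIH3T3 cells, against 26.9% of all protein-coding genes. Among the 6461 genes with at least 10 TPM in NIH3T3 cells, 57.9% had one, which is nearer to the 7 of 10. All 10 members pass that level, which was chosen after the values were seen. The members had a median of 275 TPM in NIH3T3 cells, and no share for genes of such levels is given here. The 3 members without a peak were Postn at 14.8 TPM, Dcn at 62.7 and Timp1 at 276. Timp1 was thus at the level of Thbs1, which had 59.5% of its window covered. Of the genes with at least 10 TPM, 39.7% had H3K27ac without Ctr9, as these 3 did.

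In mESCs 3 of the 10 genes had a Ctr9 peak, against 45.6% of all protein-coding genes. They were the 3 members with the highest mESC level, and of all genes with at least 10 TPM in mESCs 87.8% had one. Ctr9 was called in NIH3T3 cells and not in mESCs at 5 members, Lox, Thbs1, Timp3, Mmp2 and Bgn, a pattern found at 3.31% of all protein-coding genes. The opposite pattern, found at 22% of all genes, was that of Timp1 alone, and Fn1 and Sparc had Ctr9 in both lines, as did 23.5% of all genes. The 5 members with Ctr9 in NIH3T3 cells only had 7.44 TPM or less in mESCs and 161 or more in NIH3T3 cells. No share of that pattern among genes with such levels is given here. When the mESC list was cut to its 22016 strongest peaks by q, the number in the NIH3T3 list, Fn1 still had 22 peaks there and Sparc and Timp1 1 each.

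Along the genes, Ctr9 in NIH3T3 cells lay in the body and past the end rather than at the start. Of the 77 peaks over the members, 55 (71.4%) had their summit in the body more than 1 kb from the start, 19 (24.7%) past the end, 3 (3.9%) within 1 kb of the start and none further upstream. These shares of peaks are not set beside those over all genes. The strongest peak lay past the gene end in 5 of the 7 bound members (Fn1, Lox, Thbs1, Mmp2 and Bgn), and so it did in 45% of the 3739 bound genes with at least 10 TPM. The 5 kb downstream of the gene were covered to 51.6% on average over the 7 members, against 25.8% over these 3739 genes. Those genes were not matched to the 7 members by RNA level, which ran from 161 TPM for Mmp2 to 1167 for Bgn. The first part of the body, up to its midpoint, was covered to 30.1% against 15.9%, the second part to 40.8% against 14%, and the 5 kb upstream to 0.974% against 5.95%. Fn1 and Thbs1 carried much of the cover in the body: the other 5 bound members, a split made after seeing the values, averaged 15.8% in the first part, 19.9% in the second and 40.4% downstream. By the share of the window covered, Fn1 and Thbs1 were above 99.2% and 96.6% of the bound genes, while Mmp2 was above 38.3%.

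**Figure D4:**
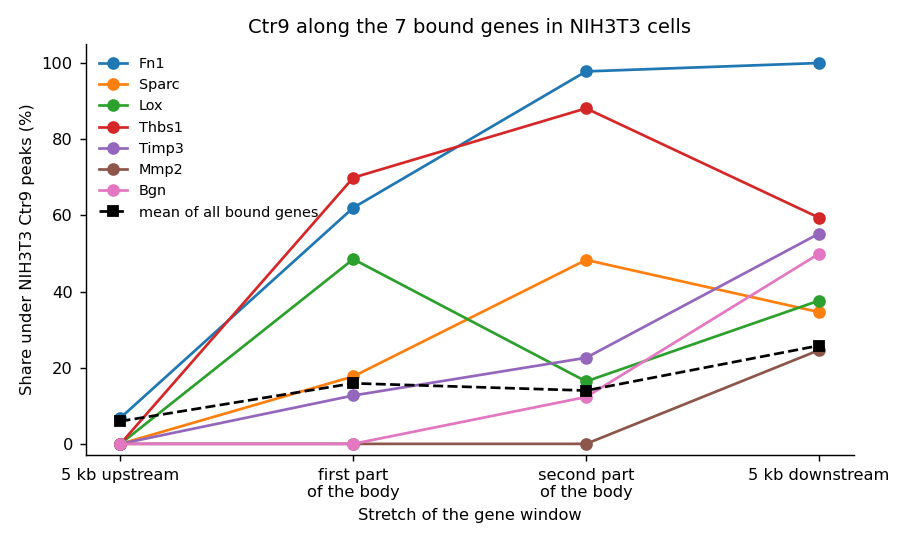
Share of 4 stretches of each gene window that lies under Ctr9 peaks in NIH3T3 cells, in percent, for the 7 bound members and, as a dashed line, the mean of the 3739 bound genes with at least 10 TPM. Fn1 rises from 62% of the first part of the body to 100% of the downstream stretch and Thbs1 reaches 88.1% in the second part, Mmp2 and Bgn are at 0 in the first part, and all 7 have covered bases downstream.

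H3K27ac was found at all 10 genes in NIH3T3 cells, against 55.9% of all protein-coding genes and 97.3% of those with at least 10 TPM. The NIH3T3 list was the longer one, with 34241 peaks against 19417 in mESCs. With the 19417 strongest of each line the members had 24 peaks in place of 44 and Bgn had none, and with flanks of 1 kb Postn had none. In mESCs it was found at Fn1 and Sparc only, against 44.6% of all genes, so 8 members had the mark in NIH3T3 cells and not in mESCs, as did 16% of all genes. The 44.6% and 16% are over genes of every RNA level. Of the 44 peaks over the members in NIH3T3 cells, 12 (27.3%) had their summit within 1 kb of the start, 25 (56.8%) further inside the body, 7 (15.9%) further upstream and none past the end. All 13 peaks at Timp3 were among those 25. In the second part of the body only Timp3 (11.4%) and Mmp2 (9.35%) had covered bases. The shares of peaks by place over all genes are not given here. The strongest by fold enrichment were at Lox (24.4, at 428 bp inside the start), Fn1 (22.7), Sparc (22.4) and Thbs1 (20.9), and the weakest maxima were at Postn (6), Dcn (5.92) and Bgn (5.79). Bgn, the gene with the most RNA, thus had the weakest H3K27ac maximum, at the 40.4th percentile of its list. The Lox peak was 3421 bp wide and ranked 111th by width in its list. Its summit also lies within AC161119.1, an antisense gene without an RNA value here, as the start peaks of Fn1 lie within Apol7d. Timp3 had 13 peaks, the most of the 10, and the last summit lay 39757 bp inside the start. In mESCs the strongest peaks were weaker, with a fold enrichment of 3.07 at Fn1 and 4.14 at Sparc, and fold enrichments are not on a common scale between libraries.

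**Figure D5:**
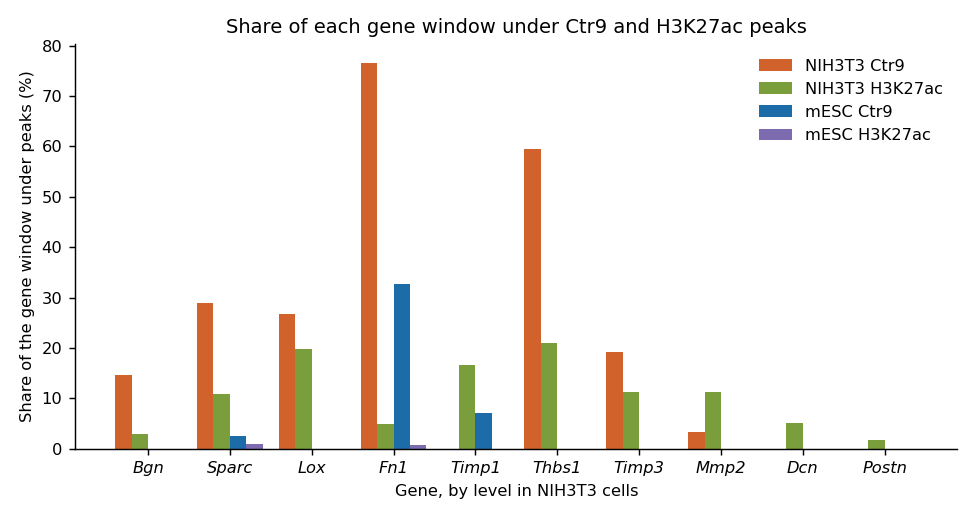
Share of each gene window (gene body and 5 kb on each side) under peaks of Ctr9 and H3K27ac in both lines, in percent, with genes in the order of their NIH3T3 RNA level. The NIH3T3 Ctr9 bars reach 76.5% at Fn1 and 59.5% at Thbs1 and are absent at Timp1, Dcn and Postn, whereas a NIH3T3 H3K27ac bar is present at every gene, at 20.9% or less.

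H3K27ac in NIH3T3 cells came within 1 kb of the start of the main transcript in 9 of the 10 members, against 88.7% of all genes with at least 10 TPM. The exception was Postn, whose only peak had its summit 2130 bp upstream of the start of Postn-204. RefSeq (GRCm38.p6) places a further start of Postn there, and the table of promoters from RefSeq (250 bases before to 50 after a start) held 6 promoters of 5 members. The sequences of 4 are given because they show where the mark fell: it lay over the promoters of Timp1, of Sparc and of the upstream start of Postn, and not over that of the downstream start of Postn, from which its GENCODE transcripts run. RNA from the upstream start was not measured on its own. Capitals mark matches to the TATA box (TATAAA), Sp1 (GGGCGG), TEAD (GGAATG), AP-1 (TGANTCA) and CArG box motifs on either strand.
Timp1, chrX:20869916-20870215, plus strand: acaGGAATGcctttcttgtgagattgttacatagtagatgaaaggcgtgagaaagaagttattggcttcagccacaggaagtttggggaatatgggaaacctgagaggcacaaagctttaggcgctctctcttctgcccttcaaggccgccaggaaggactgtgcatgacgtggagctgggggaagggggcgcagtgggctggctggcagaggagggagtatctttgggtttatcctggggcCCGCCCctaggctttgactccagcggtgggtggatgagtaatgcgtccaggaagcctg
Sparc, chr11:55420031-55420330, minus strand: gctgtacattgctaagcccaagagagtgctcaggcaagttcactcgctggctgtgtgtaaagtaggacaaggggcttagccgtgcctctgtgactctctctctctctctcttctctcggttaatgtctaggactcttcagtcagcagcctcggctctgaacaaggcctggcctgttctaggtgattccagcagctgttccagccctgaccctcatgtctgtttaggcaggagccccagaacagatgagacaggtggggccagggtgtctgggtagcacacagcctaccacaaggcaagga
Postn upstream start, chr3:54359017-54359316, plus strand: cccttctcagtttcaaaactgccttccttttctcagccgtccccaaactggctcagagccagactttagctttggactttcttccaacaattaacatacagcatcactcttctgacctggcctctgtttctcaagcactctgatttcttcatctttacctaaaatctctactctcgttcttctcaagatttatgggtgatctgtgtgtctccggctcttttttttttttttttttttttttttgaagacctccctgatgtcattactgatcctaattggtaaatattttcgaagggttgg
Postn downstream start, chr3:54360857-54361156, plus strand: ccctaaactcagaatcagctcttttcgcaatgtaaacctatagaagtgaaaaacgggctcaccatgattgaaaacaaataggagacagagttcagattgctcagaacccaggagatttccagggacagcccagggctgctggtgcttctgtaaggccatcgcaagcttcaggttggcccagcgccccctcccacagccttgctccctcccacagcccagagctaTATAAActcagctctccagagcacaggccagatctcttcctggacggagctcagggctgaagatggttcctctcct
The downstream promoter of Postn held a TATA box 26 bases before the start, which 13.6% of the 32851 promoters in the table hold somewhere in the same window, and the upstream one held none of the motifs. The Timp1 promoter held an Sp1 match 8 bases before the start and a TEAD match 247 bases before it, found in 35.7% and 14.7% of all promoters. The Sparc window, which belongs to the transcript Sparc-201, had no match. The H3K27ac peak over the Postn promoter had a fold enrichment of 6 and those next to the Timp1 start had 16 and 15.8. The promoters of Bgn and Timp3 in the table were not under a peak, and the nearest summits lay 245 and 1313 bp inside their starts. AP-1 and CArG matches, held by 7.81% and 1.63% of all promoters, were found in none of the 6 windows.

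In NIH3T3 cells 17 of the 77 Ctr9 peaks (22.1%; 95% exact Clopper-Pearson interval, 13.4% to 33%) shared at least 1 bp with an H3K27ac peak, against 21.7% of the whole Ctr9 list. They were 6 at Lox, 4 at Timp3, 3 at Fn1 and 2 each at Sparc and Thbs1. At Mmp2 and Bgn no Ctr9 peak overlapped the mark. Seen from the other side, 13 of the 44 H3K27ac peaks (29.5%; 16.8% to 45.2%) overlapped Ctr9, against 12.7% of the whole H3K27ac list. The whole lists are not limited to gene windows or to genes of the members' RNA levels. In mESCs 1 of the 53 Ctr9 peaks over the members overlapped H3K27ac (1.89%; 0.0478% to 10.1%), against 9.3% of the list. Neighbouring peaks over 1 gene are not independent, and 47 of those 53 were at Fn1.

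The pausing factor NELFA and RNAPII Ser5p, mapped in mESCs only, were called over Fn1 alone among the 10 genes, and RNAPII Ser2p over none. NELFA had 1 peak there, with its summit 49 bp inside the start and a fold enrichment of 6.99, and 10.8% of all protein-coding genes had a NELFA peak. RNAPII Ser5p had 2 peaks, at 154 bp with a fold enrichment of 7.02 and at 9530 bp with 4.55, and 13.4% of all genes had one. Apol7d, an antisense gene at 1.36 TPM in mESCs, overlaps the start of Fn1 and holds the summits of the NELFA peak and of the Ser5p peak at 154 bp, so these cannot be given to Fn1 alone. RNAPII Ser2p marks elongation, and 7.52% of all genes had a peak of it. Sparc, with 187 TPM in mESCs, had none of these marks, and the nearest NELFA peak was 45.9 kb from its body. These lists are short, with 1980 peaks for NELFA, 4490 for Ser5p and 1675 for Ser2p, so a missing peak shows only that none passed the threshold at an unknown depth.

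A list of 55 other matrix genes, set out by role, served as a frame. Of these, 26 were at least 4-fold higher in NIH3T3 cells and 5 at least 4-fold lower, with a median difference of 1.79 in log2(TPM + 1), against 10 and 0 of the 10 members. Among 24 glycoproteins 11 were higher, led by Fbln2 (fibulin 2, 0.585 TPM in mESCs and 304 in NIH3T3 cells) and Efemp1 (0.121 and 206). The 4 that were lower included Lama1, the alpha chain of the embryonic basement membrane laminin, with 41.4 TPM in mESCs and 0 in NIH3T3 cells. Of 4 proteoglycans, Vcan (versican, 5.65 and 155) and Lum (lumican, 0 and 4.88) were higher. Of 9 genes for crosslinking and folding 4 were higher, led by Loxl1 (0.106 and 103) and Serpinh1, a collagen chaperone (9.88 and 504), while Loxl2, a relative of Lox, was lower at 25.6 and 0.0318. Among 12 proteases and inhibitors 7 were higher and none lower, led by Timp2 (0.642 and 265). Of 6 receptors the hyaluronan receptor Cd44 (0.0472 and 68.3) and Sdc4 (13.1 and 186) were higher. Genes at least 4-fold lower in NIH3T3 cells were found among the glycoproteins (4 of 24) and the crosslinking and folding genes (1 of 9). The other 3 roles held none, but they hold only 4, 12 and 6 genes. Over all protein-coding genes the share was 5.34%, so an absence in roles of this size shows nothing about the role. Of the 55 genes 26 had a Ctr9 peak in NIH3T3 cells, where 26.9% of all protein-coding genes had one. In mESCs also 26 had one, against 45.6% of all protein-coding genes.

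Over 6 values per gene (the RNA level and the strongest Ctr9 and H3K27ac fold enrichment in each line, on log2 scales) the genes nearest to the medians of the 10 members, out of 21863 other protein-coding genes without collagens, were Fbln2, Serpinf1, Timp2, Cav1 and Ptx3, at distances from 0.72 to 1.22. All 5 had 0.642 TPM or less in mESCs and from 265 to 427 in NIH3T3 cells, with both Ctr9 and H3K27ac called in NIH3T3 cells and neither in mESCs. Since the genes were chosen by these same values, this profile follows from the choice. Fbln2 and Timp2 are themselves matrix genes of the list above, Serpinf1 and Ptx3 encode secreted proteins, and Cav1 encodes the coat protein of caveolae.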

How the data were processed

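Of 12 samples, 9 had a processed file (7 peak lists and 2 RNA-seq tables), and the 3 input libraries were not used here. The authors aligned ChIP-seq reads to mm10 with Bowtie2 2.3.5.1, removed blacklisted regions and called peaks per library with MACS2 2.2.6 (q-value cutoff, 0.01). The deposited fold enrichment is a ratio to the local background at the summit, and the deposited −log10 p and q values and the score belong to each peak. RNA-seq reads of strand-specific libraries were assigned by the authors to GENCODE M19 transcripts with kallisto 0.46.1. The deposited tables give estimated counts and TPM for each transcript, and kallisto's strand setting is not given in the sources used here.

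Peaks were counted when they overlapped a gene body or 5 kb on either side by at least 1 bp, with coordinates from GENCODE M21, where 21918 of 21951 protein-coding genes were matched by identifier. Gene levels were those of the highest transcript, as in the study, on the log2(TPM + 1) scale, and a difference of at least 2 was counted. Estimated counts were rounded to whole numbers for intervals, which are 95% exact Poisson, conditional binomial or Clopper-Pearson intervals and cover counting error only. A gene at 0 was set against a floor of 3 counts in that library. The members, the gene lists, the rule for naming genes (all members, and per role the 2 other matrix genes with the largest higher and the 1 with the largest lower value past 4-fold, plus the 5 genes most like the members) and the motifs were chosen with earlier results of these data known. The values of 1 gene that this rule names are not reported here. Python 3.11.15, pandas 2.3.3, NumPy 2.4.6, SciPy 1.17.1 and Matplotlib 3.10.9 were used, and the code was tested on simulated data. Alternatives changed the transcript summary, the pseudocount, a filter on low TPM, the q threshold, the summit rule, the flanks and the number of peaks per line.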

Additional observations from a re-analysis of the deposited data

How the results depend on the processing

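No paired analysis was possible because each group has 1 library, and for the same reason no library could be left out. Of 49 values under alternative settings for 13 results, 47 stayed within 1.5 times the value given, or, for the median on the log2 scale, within 0.585 of it. The median difference of the members in log2(TPM + 1) was 7.04 with a pseudocount of 0.1, since genes near 0 in mESCs weigh more on that scale, and all 10 genes stayed past 4-fold under each setting. Sparc lay close to that cut, at 2.03 in the main setting. The counting interval of its CPM ratio, 3.91 to 4.1, reached below 4. With the 19417 strongest H3K27ac peaks of each line, the peaks over the members in NIH3T3 cells numbered 24 in place of 44, and Bgn had none. With flanks of 1 kb Postn had no H3K27ac peak. Leaving out Fn1 and Thbs1 changed the mean Ctr9 cover as given above. Setting the median ratio of genes expressed in both lines to 1, an alternative chosen after seeing the data, moved log2 ratios by 0.08 and no count of members. The unknown depth of the peak lists limits every statement that a peak was absent, and every comparison of peak number or width between the lines.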
